A study of Homo sapiens with 9 samples.

Results

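The 10 genes described here are 5 that encode the NF-κB subunits (NFKB1, NFKB2, RELA, RELB and REL), 2 that encode feedback inhibitors of the pathway (NFKBIA and TNFAIP3) and 3 further genes known to respond to it (TNFAIP2, BIRC3 and IER3). They were taken by name from a table of 59453 gene names, and the choice was made with earlier results of these data known. All 10 were among the 16556 gene names that passed a filter on low counts. The cells were MDA-MB-231, an established human line of triple-negative breast cancer, grown in flasks and sequenced as 3 untreated libraries, 3 libraries after 8 h with TEPA and 3 after 24 h. TEPA is a polyamine that chelates copper, and copper chelation was the only treatment. The labels give a dose of 8 mM. The methods of the study are divided on this: the section on cell lines includes that dose for this line, whereas the section on sequencing gives a lower dose. A single untreated group served both times, so the length of culture and the length of treatment cannot be told apart. No source says that the 3 libraries of a group came from separate cultures, and the p-values then measure the spread between these libraries, which may be technical.

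NF-κB is a family of dimeric transcription factors that IκB proteins hold in the cytoplasm of resting cells. In the canonical route, a receptor such as that for TNF activates a kinase complex that marks IκBα for destruction, and dimers of p50 and p65 enter the nucleus. In the non-canonical route, the kinase NIK triggers processing of p100 to p52, which pairs with RelB. Many target genes encode brakes on the same pathway, among them IκBα and the ubiquitin-editing enzyme A20, and basal-like breast cancer lines are known for basal activity of the pathway. The tables hold messenger RNA levels only and carry no measure of the location or activity of the proteins.

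The sequences around the start sites are shown because the pathway acts through the κB element, and several of these genes are textbook cases of promoters that carry it. RefSeq promoter windows on GRCh38.p14, from 250 bases before to 50 bases after an annotated start, were found for 8 of the 10 genes, with more than 1 start for NFKB1, NFKB2 and RELA. RELB and IER3 had no entry. Both strands were searched for the κB consensus, and 6 of the 8 genes held at least 1 match in a window, against 13.3% of all 27305 genes with a window and 17.3% of the 11042 of them that were also tested. RELA and TNFAIP2 held none in the windows given. The matches are printed 5′ to 3′ on the strand of the gene with short flanks, the capitals marking the matched bases.
NFKB1, chr4:102501300-102501329, plus strand: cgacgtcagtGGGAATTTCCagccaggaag
NFKB2, chr10:102394462-102394490, plus strand: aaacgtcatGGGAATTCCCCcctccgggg
NFKB2, chr10:102394490-102394519, plus strand: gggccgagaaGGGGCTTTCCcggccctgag
NFKB2, chr10:102395519-102395548, plus strand: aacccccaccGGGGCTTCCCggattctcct
NFKB2, chr10:102395674-102395703, plus strand: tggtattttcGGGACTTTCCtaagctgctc
REL, chr2:60881518-60881546, plus strand: gtcagccgcGGGAAATTCCCctcccgcca
TNFAIP3, chr6:137867188-137867217, plus strand: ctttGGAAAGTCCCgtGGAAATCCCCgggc

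For NFKBIA and BIRC3, an inhibitor and a survival gene that both rose at 24 h, the whole 250 bases before the start are given as context. Both genes carried the consensus on the strand opposite to the gene, NFKBIA once and BIRC3 at 2 places.
NFKBIA, chr14:35404750-35404999, minus strand: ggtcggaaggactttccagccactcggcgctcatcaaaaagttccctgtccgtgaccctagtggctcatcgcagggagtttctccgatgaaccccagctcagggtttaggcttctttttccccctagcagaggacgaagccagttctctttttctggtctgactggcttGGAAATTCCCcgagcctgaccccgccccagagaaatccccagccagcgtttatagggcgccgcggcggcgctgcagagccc
BIRC3, chr11:102317234-102317483, plus strand: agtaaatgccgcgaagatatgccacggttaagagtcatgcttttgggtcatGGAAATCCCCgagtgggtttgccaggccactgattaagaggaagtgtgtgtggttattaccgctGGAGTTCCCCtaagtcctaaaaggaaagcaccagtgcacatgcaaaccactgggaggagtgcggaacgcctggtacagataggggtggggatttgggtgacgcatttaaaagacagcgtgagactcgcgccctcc
A match is a description of letters, and no binding was measured in these cells.

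**Figure D1:**
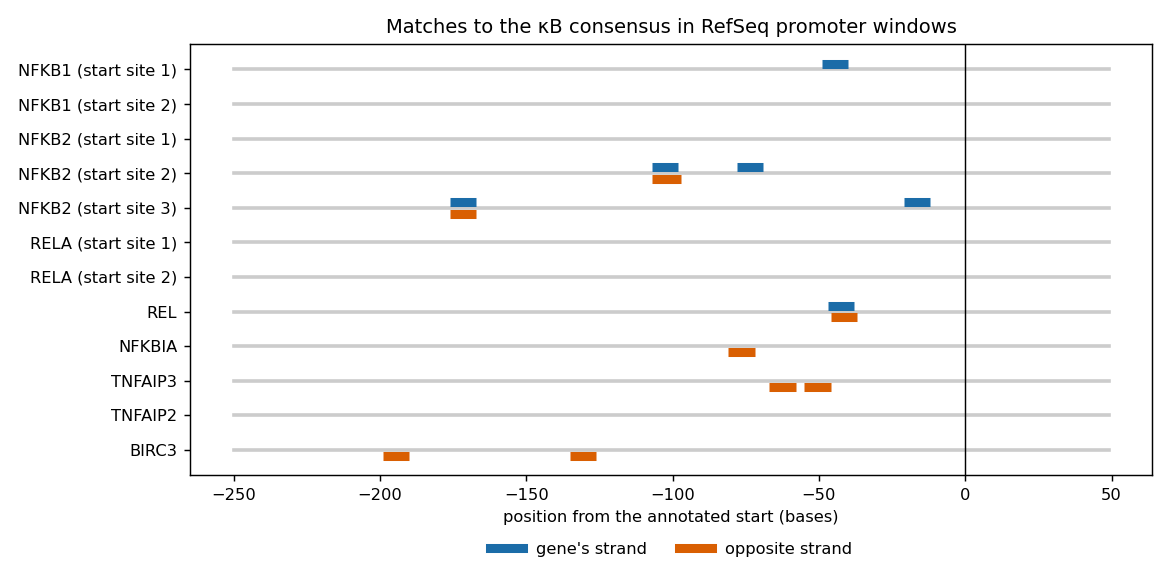
Matches to the κB consensus in the RefSeq promoter windows of 8 genes, by position in bases from the annotated start (vertical line), 1 grey line per window. Blue blocks lie on the strand of the gene and orange blocks on the opposite strand. The matches of 6 genes all lie before the start, and the windows of RELA and TNFAIP2 hold none.

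The total count per library ranged from 34633755 to 49342659, and the 10 genes together took 0.0913% to 0.108% of the counts in untreated libraries, 0.0791% to 0.0814% at 8 h and 0.127% to 0.130% at 24 h. Of the mesenchymal markers of this line, VIM was at a mean of 3674 CPM (counts scaled to library size with TMM factors) in untreated libraries, 4387 CPM after 8 h and 3387 CPM after 24 h, and CD44 was at 859, 1077 and 865 CPM. PGR was at 0 in all 9 libraries, and ESR1 did not exceed 9 counts. Of the luminal markers, GATA3 was at means of 10.6, 11.5 and 14.1 CPM in the same order, FOXA1 at 3.07, 3.46 and 3.38 CPM, and EPCAM at 1.13, 1.45 and 1.12 CPM. Of the leukocyte markers reported, CD3E was at 0, and PTPRC and LYZ did not exceed 5 counts. CD14 moved with the treatment, from a mean of 3.85 CPM untreated to 0.76 CPM after 8 h and 4.05 CPM after 24 h. Of 5 fibroblast markers, COL1A1 and PDGFRB made up nearly all of a sum of 42.5 to 55.4 CPM untreated, 57.2 to 61.7 after 8 h and 109 to 118 after 24 h. DCN did not exceed 4 counts, and the part of these markers in the results was not tested.

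The untreated libraries were spread for these genes. Untreated replicate 1 held the highest value of its group for 9 of the 10 genes. Its median deviation from the mean of the other libraries of its group was 0.09 on the log2 scale, against 0.00 over all genes tested. Untreated replicate 2 held the lowest value for 8 of the 10 genes, with a median deviation of -0.08. Untreated replicate 1 was also highest for 20 of 29 other NF-κB target genes. TEPA 24 h replicate 2 was highest of its group for 7 of the 10 genes and for 21 of the 29. Counts of the 10 genes, and the values of those among them whose call turned on one of these libraries, are given also without it.

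After 8 h of TEPA, 5 of the 10 genes fell (NFKB1, NFKB2, RELB, NFKBIA and IER3) and REL rose, at an adjusted p under 0.05 in edgeR's quasi-likelihood test with Benjamini-Hochberg adjustment over all genes tested. In the same comparison 24.5% of all genes tested fell and 25.2% rose. After 24 h, 5 genes rose against untreated cells (NFKB2, REL, NFKBIA, TNFAIP3 and BIRC3) and 0 fell, against 25.7% and 26.8% of all genes. At 24 h an unadjusted p under 0.05 gave 7 rises and 0 falls, and DESeq2 called 6 rises and 0 falls. The shares of all genes given here are for adjusted edgeR calls and do not apply to these other settings. Between the treated groups, 9 of the 10 genes were higher at 24 h than at 8 h and 0 were lower, against 26.0% and 28.8% of all genes (54.8% in either direction). Both the unadjusted p and DESeq2 gave 10 higher and 0 lower, again without a share of all genes at these settings. For all 10 genes, NFKB1 included, the 3 libraries at 24 h lay above the 3 at 8 h, which held for 29.6% of all genes.

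**Figure D2:**
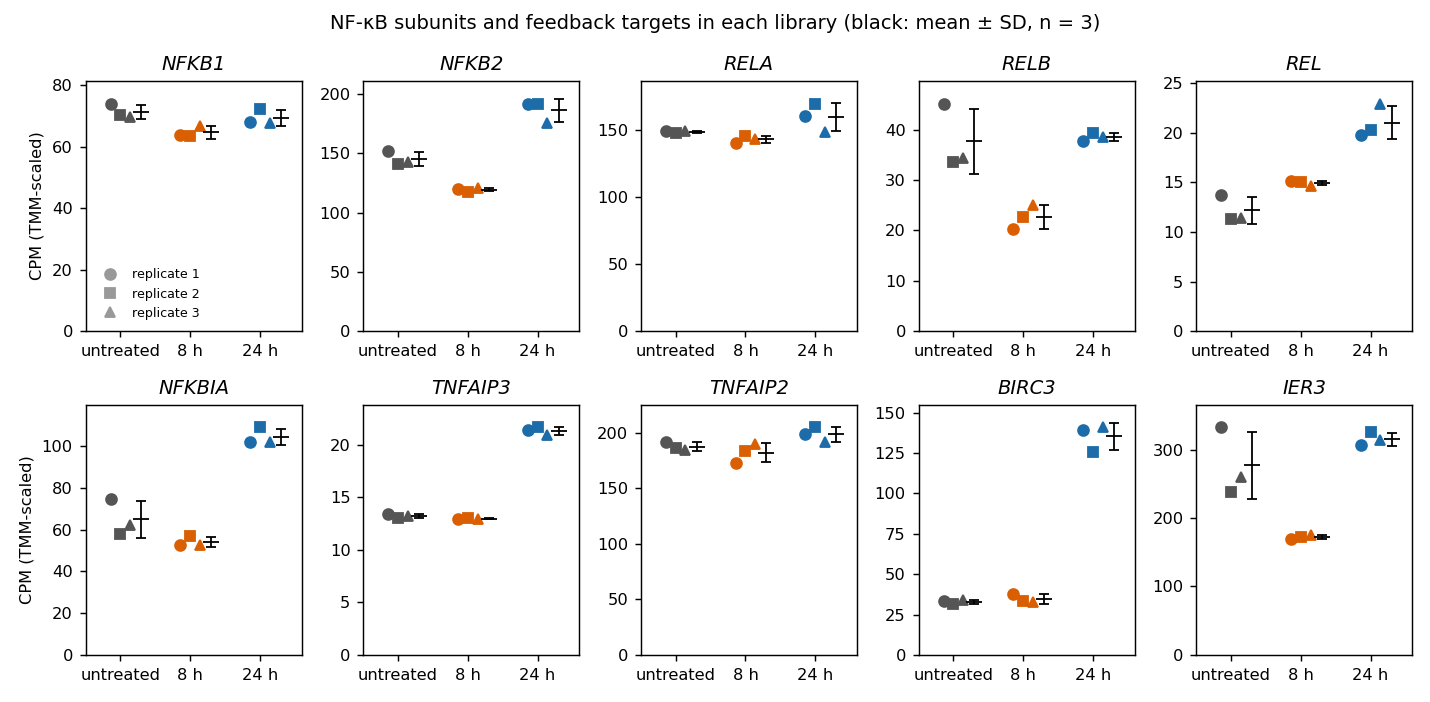
Level of each of the 10 genes in each of the 9 libraries, in TMM-scaled CPM on an axis from 0, with the replicate number as the symbol and the mean ± SD (n = 3) in black. The 24 h libraries lie above the 8 h libraries in every panel, and BIRC3 stands at 126 to 141 CPM at 24 h against 31.3 to 37.9 CPM elsewhere.

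Among the subunits, RELB and NFKB2 had the largest falls at 8 h, and REL and NFKB2 were the ones that rose at 24 h. Levels are given ± SD and log2 fold changes ± SE, with n = 3 libraries a group. RELB encodes RelB, the partner of p52. Its level was 45.2, 33.6 and 34.3 CPM in untreated replicates 1 to 3, 20.3, 22.6 and 25.1 CPM at 8 h, and 37.8, 39.3 and 38.6 CPM at 24 h. The 8 h libraries lay below all others, and untreated replicate 1 lay above all others. RELB was 1.66-fold lower at 8 h than in untreated cells (log2 fold change -0.73 ± 0.10 SE, edgeR adjusted p = 1.46e-05). At 24 h it did not differ past the threshold (0.04 ± 0.09, edgeR adjusted p = 0.771), but without untreated replicate 1 it was called higher, with a log2 fold change of 0.18 ± 0.06 and an edgeR adjusted p of 0.0257. Without that library the fall at 8 h was -0.59 ± 0.07. From 8 h to 24 h RELB rose 1.70-fold (0.77 ± 0.10, edgeR adjusted p = 6.14e-06).

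NFKB2 encodes p100, the precursor of p52 and itself an inhibitor that holds RelB back. It was at 152, 141 and 143 CPM untreated, 120, 118 and 120 CPM at 8 h, and 192, 191 and 175 CPM at 24 h. The 3 groups did not overlap, with the 8 h libraries lowest and the 24 h libraries highest. NFKB2 fell 1.22-fold at 8 h (log2 fold change -0.29 ± 0.04, edgeR adjusted p = 5.43e-05) and stood 1.28-fold above untreated cells at 24 h (0.36 ± 0.04, edgeR adjusted p = 4.26e-06). These calls held in every fit that left out 1 library of the 2 groups compared, the 8 h values ranging from -0.31 to -0.25 and the 24 h values from 0.33 to 0.40.

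NFKB1 encodes p105 and its product p50, the DNA-binding partner of p65. The levels were 74.0, 70.3 and 69.6 CPM untreated, 63.7, 63.4 and 67.0 CPM at 8 h, and 68.2, 72.4 and 67.8 CPM at 24 h. The 8 h libraries lay below the rest, by a small margin. The fall at 8 h was -0.14 ± 0.04 on the log2 scale (edgeR adjusted p = 0.0137), and without TEPA 8 h replicate 2 the call was lost, with a log2 fold change of -0.13 ± 0.05 and an edgeR adjusted p of 0.0517. At 24 h NFKB1 did not differ from untreated cells past the threshold (-0.04 ± 0.04, edgeR adjusted p = 0.494), with overlapping ranges and replicates 1 and 3 below the lowest untreated library. The difference between 24 h and 8 h was 0.10 ± 0.04 with an edgeR adjusted p of 0.0546, above the threshold. It was called under 6 of 8 alternative settings and without TEPA 8 h replicate 3 (0.13 ± 0.05), TEPA 24 h replicate 3 (0.12 ± 0.05), untreated replicate 1 (0.10 ± 0.04) or untreated replicate 2 (0.11 ± 0.04).

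RELA encodes p65, the main activating subunit of the canonical route. It was at 150, 148 and 149 CPM untreated, 141, 146 and 143 CPM at 8 h, and 161, 170 and 149 CPM at 24 h. RELA varied least between untreated and 8 h cells among the subunits, although the 8 h libraries lay below the untreated ones without overlap, as did 28.6% of all genes. The log2 fold change at 8 h was -0.05 ± 0.04 (edgeR adjusted p = 0.315). At 24 h it was 0.10 ± 0.04 (edgeR adjusted p = 0.0557), with TEPA 24 h replicate 3 inside the untreated range; without that library it was 0.15 ± 0.04 with an edgeR adjusted p of 0.00518. RELA was higher at 24 h than at 8 h by 0.16 ± 0.04 (edgeR adjusted p = 0.00565).

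REL encodes c-Rel, a subunit best known from lymphoid cells, and was the only 1 of the 10 genes called higher at 8 h. Its level was 13.7, 11.4 and 11.4 CPM untreated, 15.1, 15.1 and 14.7 CPM at 8 h, and 19.8, 20.3 and 22.9 CPM at 24 h. The 3 groups did not overlap. REL rose 1.23-fold at 8 h (log2 fold change 0.30 ± 0.08, edgeR adjusted p = 0.0063) and 1.73-fold at 24 h (0.79 ± 0.08, edgeR adjusted p = 6.5e-07), and the step from 8 h to 24 h was 0.49 ± 0.08 (edgeR adjusted p = 6.9e-05). Without untreated replicate 1 the rises were 0.39 ± 0.08 and 0.88 ± 0.07. In GENCODE v44 the exons of REL (chr2:60881491-60931612) overlap those of ENSG00000267520 on the same strand, so reads of the 2 models may not be told apart. The other 9 genes had no such overlap.

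The feedback inhibitors rose together at 24 h and differed at 8 h. NFKBIA encodes IκBα, the inhibitor that NF-κB resynthesizes within one round of activation. It was at 74.7, 58.0 and 62.0 CPM untreated, 52.5, 56.7 and 52.8 CPM at 8 h, and 102, 109 and 102 CPM at 24 h. The 24 h libraries lay far above the rest, and the 8 h libraries lay below the untreated ones, closest to untreated replicate 2. At 24 h NFKBIA was 1.61-fold higher than in untreated cells (log2 fold change 0.69 ± 0.07, edgeR adjusted p = 7.02e-07). At 8 h it was 1.20-fold lower (-0.26 ± 0.07, edgeR adjusted p = 0.00635), a fall that was reduced to -0.15 ± 0.05 without untreated replicate 1 (edgeR adjusted p = 0.0182). From 8 h to 24 h it rose 1.93-fold (0.95 ± 0.07, edgeR adjusted p = 2.38e-08).

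TNFAIP3 encodes A20, which removes and edits ubiquitin chains on signaling proteins upstream of the kinase complex. It was at 13.4, 13.0 and 13.2 CPM untreated, 12.9, 13.0 and 13.0 CPM at 8 h, and 21.4, 21.6 and 20.9 CPM at 24 h. The untreated and 8 h libraries overlapped within a range of under 1 CPM, and all 24 h libraries lay above them. The log2 fold change was -0.02 ± 0.06 at 8 h (edgeR adjusted p = 0.757) and 0.69 ± 0.06 at 24 h (edgeR adjusted p = 6.42e-08), a 1.62-fold rise. Untreated replicate 1 had little weight here, the value at 24 h without it being 0.70 ± 0.06.

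Of the 3 other responsive genes, BIRC3 changed the most among the 10. BIRC3 encodes cIAP2, a ubiquitin ligase that helps TNF receptors signal to survival and keeps NIK low. Its level was 33.4, 31.3 and 33.8 CPM untreated, 37.9, 33.2 and 32.6 CPM at 8 h, and 139, 126 and 141 CPM at 24 h. The untreated and 8 h libraries overlapped, and the 24 h libraries stood apart from both. BIRC3 rose 4.12-fold at 24 h (log2 fold change 2.04 ± 0.06, edgeR adjusted p = 2.05e-12), whereas the difference at 8 h was 0.08 ± 0.06 (edgeR adjusted p = 0.330). The rise from 8 h to 24 h was 3.91-fold (1.97 ± 0.06, edgeR adjusted p = 1.45e-11).

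IER3, an immediate early gene with roles in survival and in limiting NF-κB activity, had the widest spread in untreated cells. It was at 332, 238 and 261 CPM untreated, 170, 172 and 175 CPM at 8 h, and 307, 325 and 314 CPM at 24 h. The 8 h libraries lay below all others, while untreated replicate 1 lay above the 24 h libraries. IER3 was 1.61-fold lower at 8 h (log2 fold change -0.68 ± 0.08, edgeR adjusted p = 6.05e-06), and without untreated replicate 1 the fall was -0.53 ± 0.04 (edgeR adjusted p = 1.53e-08). At 24 h the difference from untreated cells was 0.19 ± 0.08 (edgeR adjusted p = 0.0641), and without that library it was 0.34 ± 0.04 (edgeR adjusted p = 2.08e-06). From 8 h to 24 h IER3 rose 1.83-fold (0.87 ± 0.08, edgeR adjusted p = 3.24e-07).

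TNFAIP2, which encodes a protein of membrane protrusions and is induced by TNF, changed little. It was at 192, 186 and 184 CPM untreated, 173, 183 and 189 CPM at 8 h, and 199, 205 and 191 CPM at 24 h. The untreated range overlapped both treated ranges. The log2 fold change was -0.04 ± 0.04 at 8 h (edgeR adjusted p = 0.416) and 0.08 ± 0.04 at 24 h (edgeR adjusted p = 0.0985). The difference between 24 h and 8 h, 0.13 ± 0.04 (edgeR adjusted p = 0.0159), was lost without TEPA 8 h replicate 1 (0.09 ± 0.04, edgeR adjusted p = 0.0758), without TEPA 24 h replicate 1 (0.12 ± 0.05, edgeR adjusted p = 0.0501) and without TEPA 24 h replicate 2 (0.10 ± 0.04, edgeR adjusted p = 0.0574).

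**Figure D3:**
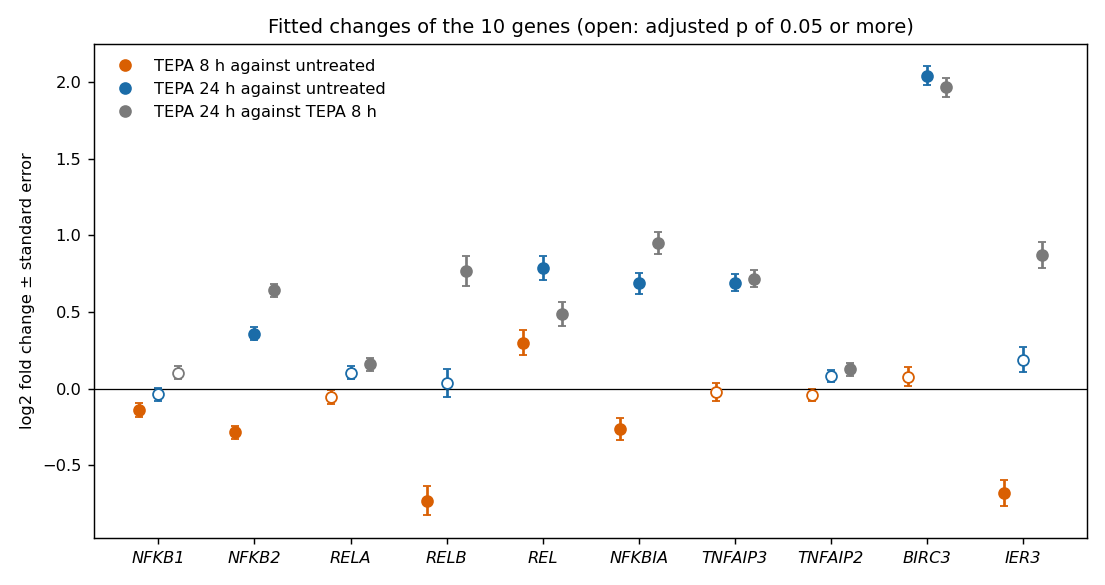
Fitted log2 fold change ± standard error of the 10 genes in 3 comparisons, TEPA 8 h against untreated (orange), TEPA 24 h against untreated (blue) and TEPA 24 h against TEPA 8 h (grey), open symbols marking an adjusted p of 0.05 or more. BIRC3 at 24 h (2.04) stands above all other values, and RELB (-0.73) and IER3 (-0.68) at 8 h are the lowest.

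Leaving out untreated replicate 1 kept all 6 calls at 8 h and raised the number of genes called higher at 24 h from 5 to 7, RELB and IER3 being added. Leaving out TEPA 24 h replicate 2 gave 5 genes higher at 24 h, as with all libraries, and 8 higher at 24 h than at 8 h, TNFAIP2 losing its call. With a fold limit added to the call (log2 fold change beyond 0.5), RELB and IER3 were called lower at 8 h, against 7.67% of all genes, and REL, NFKBIA, TNFAIP3 and BIRC3 higher at 24 h, against 10.2%.

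**Figure D4:**
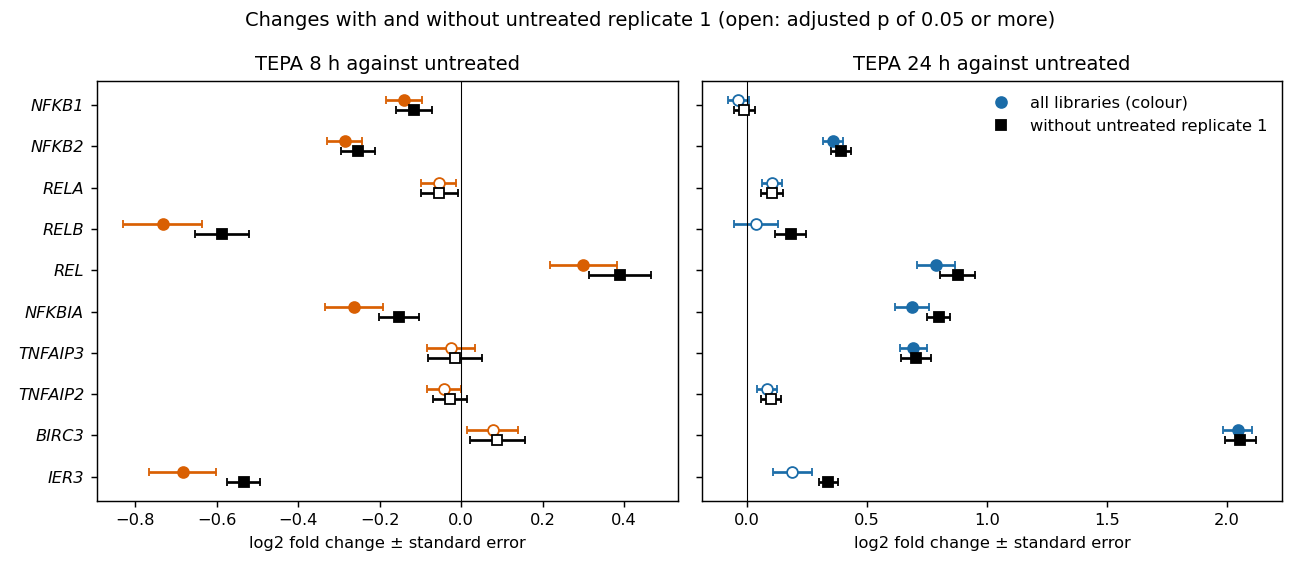
Log2 fold change ± standard error of the 10 genes at 8 h (left) and at 24 h (right) against untreated cells, with all libraries (coloured circles) and without untreated replicate 1 (black squares), open symbols marking an adjusted p of 0.05 or more. RELB moves from 0.04 to 0.18 and IER3 from 0.19 to 0.34 at 24 h, and BIRC3 stays near 2.04.

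Per kilobase of exon in GENCODE v44, IER3 had the highest level of the 10 genes in each group, at 205 ± 36.5 CPM per kb untreated, 128 ± 2.18 CPM per kb at 8 h and 234 ± 7.02 CPM per kb at 24 h. In untreated cells it was followed by TNFAIP2 at 37.0 CPM per kb, RELA at 27.3 and NFKB2 at 26.0, of which the last pair overlapped. NFKBIA at 19.1, RELB at 12.6, NFKB1 at 4.55, BIRC3 at 4.39, TNFAIP3 at 2.05 and REL at 0.711 CPM per kb came next, and only NFKB1 and BIRC3 overlapped among these neighbours. At 8 h no neighbours in the order overlapped, and BIRC3 (4.62 CPM per kb) stood above NFKB1 (4.13 CPM per kb). At 24 h NFKB2 (33.3), NFKBIA (30.7) and RELA (29.3 CPM per kb) followed TNFAIP2 with overlapping ranges between neighbours, and BIRC3 (18.1 CPM per kb) stood above RELB (12.9 CPM per kb). The exon length counts every annotated isoform, 17.13 kb for REL and 15.68 kb for NFKB1, which lowers the level per kb of genes with long rare exons.

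Genes whose pattern over the 9 libraries was closest to that of NFKBIA were SORT1 (root mean square difference of centred log2 CPM 0.06), PCCA (0.07) and HEG1 (0.07). SORT1, which encodes the sorting receptor sortilin, stood at 93.7 ± 8.56 CPM before treatment, with 77.2 ± 3.29 CPM after 8 h and 148 ± 4.96 CPM after 24 h. The closest to RELB were NR1H3 (0.06), PDE7B (0.08) and VASN (0.08). NR1H3, which encodes the oxysterol receptor LXRα, was at 33.5 ± 3.59 CPM untreated, 19.7 ± 2.08 CPM at 8 h and 35.2 ± 1.54 CPM at 24 h. These are likenesses among 9 libraries that share their groups.

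The other genes of the pathway, 96 in 6 lists by role, had 88 members that could be tested. At 8 h, 46 of the 88 fell and 13 rose, against 24.5% and 25.2% of all genes, and the median log2 fold change was -0.20 against 0.00 over all genes. At 24 h, 24 fell and 33 rose, against 26.8% and 25.7% of all genes, with a median of 0.13. The 8 genes not tested for low counts were EDAR, TRAF3IP3, CCL20, CXCL10, TNF, LTB, BCL2A1 and LCN2, none above 15 counts in a library, so that the TNF gene itself gave at most 1 count. The study picked some of these genes on these samples (among them TNFRSF1A, TLR2, TLR3, TRAF6, RIPK1, IKBKG, PLAU, BCL2L1, PTX3, CXCL1, CXCL8, IL6 and MMP9), and their direction is no independent evidence.

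Of the 6 other members of the IκB family, 3 rose and BCL3 fell at 8 h, and 6 rose at 24 h, where 25.2% of all genes rose and 24.5% fell at 8 h and 25.7% rose at 24 h. The 8 h call of NFKBIL1 (edgeR adjusted p = 0.0482) held under only 2 of 8 alternative settings. NFKBIB, which encodes IκBβ, was at 29.7, 32.6 and 30.5 CPM untreated, 38.2, 39.6 and 40.3 CPM at 8 h, and 49.7, 51.3 and 48.0 CPM at 24 h. It rose at both times, by 0.35 ± 0.05 and by 0.68 ± 0.05 on the log2 scale (edgeR adjusted p = 3.04e-05 and 1.54e-08), while NFKBIA fell at 8 h. BCL3, a nuclear member that works with p50 and p52 dimers, fell by 0.48 ± 0.10 at 8 h and rose by 0.45 ± 0.10 at 24 h. NFKBIE, which encodes IκBε, rose by 0.42 ± 0.06 at 24 h, and its 8 h value was -0.07 ± 0.06 (edgeR adjusted p = 0.359). Without TEPA 24 h replicate 2, 4 of the 6 rose at 24 h, NFKBIZ and NFKBID losing their call. In the 6 fits that left out 1 library of the groups compared, NFKBID kept its 24 h call in 1 and NFKBIZ in 2. DESeq2 called 5 of the 6 genes higher at 24 h.

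Of the 12 kinase genes, 2 rose and 4 fell at 8 h, and 6 rose and 3 fell at 24 h, against 25.2% and 24.5% of all genes at the earlier time and 25.7% and 26.8% at the later. MAP3K14 encodes NIK, the kinase that starts the non-canonical route. It was at 82.0, 97.0 and 93.4 CPM untreated, 125, 129 and 130 CPM at 8 h, and 148, 146 and 141 CPM at 24 h, and it rose 1.41-fold and 1.59-fold (edgeR adjusted p = 1.29e-06 and 3.25e-08). IKBKG, which encodes the regulatory subunit NEMO of the canonical kinase complex, went the other way, from 38.5 ± 6.76 CPM untreated to 30.8 ± 0.985 CPM after 8 h and 20.3 ± 1.15 CPM after 24 h (log2 fold change -0.92 ± 0.09 at 24 h, edgeR adjusted p = 6.31e-07). IKBKG has a near-identical pseudogene copy, and its counts are uncertain for that reason. The catalytic subunit genes, named after their values were seen, gave -0.08 (8 h) and -0.04 (24 h) on the log2 scale for CHUK and 0.12 and 0.15 for IKBKB, and only the last of these passed the test (edgeR adjusted p = 0.0221).

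Of the 11 receptor genes tested, 7 fell at 8 h and 0 rose (0 also at an unadjusted p under 0.05 and with DESeq2), and 3 rose and 7 fell at 24 h. Of all genes, 24.5% fell and 25.2% rose at 8 h, and 25.7% rose and 26.8% fell at 24 h. The 3 that rose at 24 h were IL1R1, TLR3 and CD40. In the 6 fits that left out 1 library of the groups compared, IL1R1 kept this call in 6, TLR3 in 4 and CD40 in 2. TEPA 24 h replicate 2 was among the libraries without which CD40 lost it. IL1R1, the signaling receptor for interleukin-1, followed the order of NFKBIA, with 23.2 ± 3.08 CPM untreated, 14.2 ± 0.989 CPM at 8 h and 30.9 ± 0.636 CPM at 24 h. TLR3, a receptor for double-stranded RNA, was at 9.71 ± 0.968, 5.64 ± 0.220 and 11.8 ± 0.891 CPM. TLR4, the receptor for lipopolysaccharide, was lower at both times (-0.48 at 8 h and -0.19 at 24 h). TNFRSF12A, the receptor for TWEAK, fell at 24 h (-0.73 ± 0.05, edgeR adjusted p = 5.57e-09), its 8 h value being -0.07 ± 0.05 (edgeR adjusted p = 0.238).

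Of the 17 adaptors and ubiquitin ligases, 6 rose and 7 fell at 8 h, and 8 rose and 4 fell at 24 h, where all genes gave 25.2% and 24.5%, then 25.7% and 26.8%. BIRC2 encodes cIAP1, the close relative of cIAP2 and neighbour of BIRC3 on chromosome 11. It rose 1.34-fold at 8 h and 1.61-fold at 24 h, from 68.2 ± 1.51 CPM to 91.1 ± 5.91 and 110 ± 7.39 CPM, whereas the 8 h value of BIRC3 did not pass the test. TRAF2, which joins the same complex, rose by 0.23 ± 0.05 and 0.41 ± 0.05. RIPK1 fell by 0.40 ± 0.04 and 0.22 ± 0.04, and TRAF6 fell by 0.40 ± 0.07 and 0.48 ± 0.07.

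Of the 13 other negative regulators tested, 1 rose and 6 fell at 8 h, and 5 rose and 3 fell at 24 h, beside 25.2% and 24.5% of all genes at 8 h and 25.7% and 26.8% at 24 h. TNIP1 encodes ABIN-1, a partner of A20. It was at 288, 234 and 245 CPM untreated, 146, 149 and 151 CPM at 8 h, and 234, 260 and 233 CPM at 24 h, and the fall at 8 h was 1.72-fold (-0.78 ± 0.06, edgeR adjusted p = 1.21e-07). CYLD, a deubiquitinase, fell by 0.50 ± 0.04 at 8 h and rose by 0.28 ± 0.04 at 24 h. OTUD7B, which spares TRAF3 from degradation, rose at both times (0.35 ± 0.04 and 0.48 ± 0.04), and COMMD1 fell at both times (-0.36 ± 0.06 and -0.76 ± 0.06).

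Of the 29 other target genes tested, 21 fell and only GADD45B rose at 8 h, against 24.5% and 25.2% of all genes. Their median at that time was -0.46 on the log2 scale, against 0.00 over all genes. CXCL8, which encodes the neutrophil chemoattractant interleukin-8, was at 18.3, 8.19 and 9.99 CPM untreated, 3.45, 3.35 and 3.13 CPM at 8 h, and 11.7, 14.9 and 13.4 CPM at 24 h. It fell 3.64-fold at 8 h (-1.86 ± 0.24, edgeR adjusted p = 9.74e-06), and its untreated replicate 1 lay above every other library. CSF2, the gene of a growth factor for myeloid cells, fell by 1.54 ± 0.15 and the chemokine gene CXCL1 by 1.52 ± 0.30. Without untreated replicate 1 the log2 fold changes were -1.45 for CXCL8 and -0.99 for CXCL1, both still called. GADD45B, a stress-response gene, went from 32.1 ± 1.69 to 61.7 ± 1.70 CPM.

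At 24 h, 5 of the 29 target genes rose and 7 fell, against 25.7% and 26.8% of all genes, and without untreated replicate 1 the counts were 11 and 6. SAA1, an acute-phase gene, was at 4.91, 4.60 and 4.21 CPM untreated, 2.67, 2.27 and 2.48 CPM at 8 h, and 11.6, 13.4 and 11.7 CPM at 24 h. It rose 2.67-fold at 24 h (1.42 ± 0.09, edgeR adjusted p = 7.1e-09), with a close paralog that could share reads. IRF1 rose by 0.42 ± 0.05. The protease gene PLAU (-0.76 ± 0.04) and the pentraxin gene PTX3 (-0.72 ± 0.04) stayed below untreated cells. CXCL8 (0.14 ± 0.20, edgeR adjusted p = 0.576) and CXCL1 (0.54 ± 0.25, edgeR adjusted p = 0.0754) were called higher without untreated replicate 1, at 0.55 ± 0.10 and 1.07 ± 0.15 (edgeR adjusted p = 2.41e-04 and 7.33e-06), and CXCL1 was also called with no filter on low counts (edgeR adjusted p = 7.61e-06). Between the treated groups, 22 of the 29 were higher at 24 h than at 8 h and 3 were lower (PLAU, GADD45B and LIF). In that comparison 26.0% of all genes were higher and 28.8% lower. Without TEPA 24 h replicate 2 the counts were 19 and 3.

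**Figure D5:**
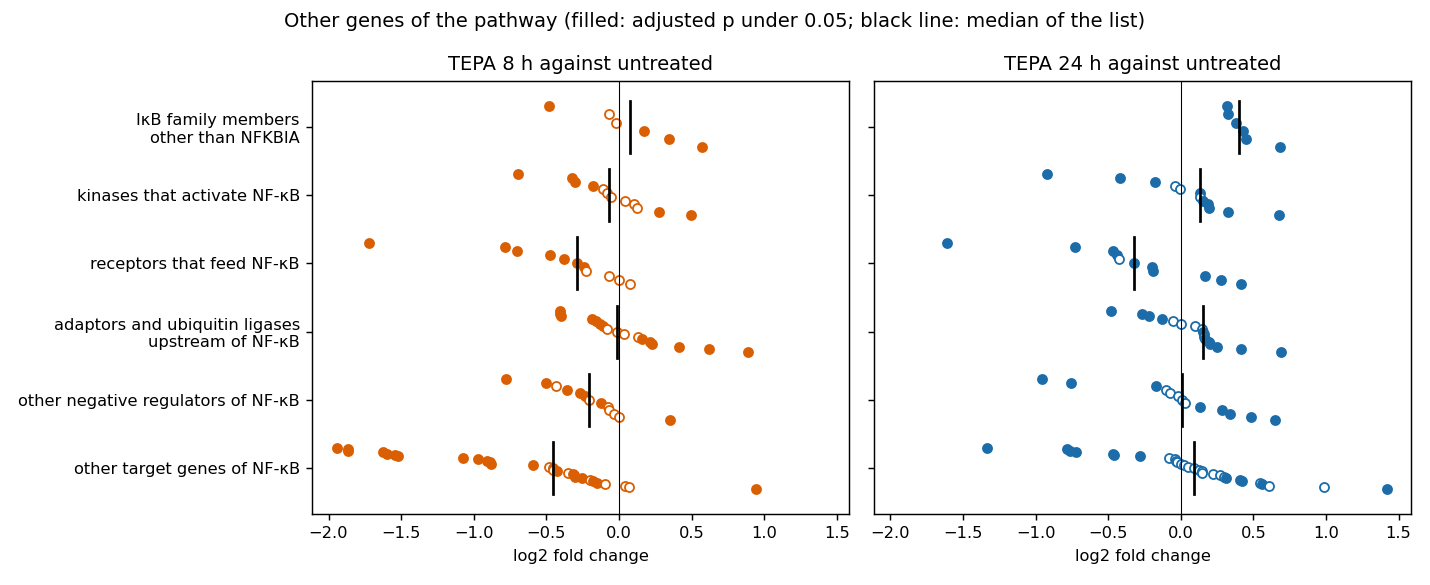
Log2 fold change of each tested gene in the 6 other lists of the pathway at 8 h (left, orange) and at 24 h (right, blue) against untreated cells, filled where the adjusted p was under 0.05, with the median of each list as a black line. Most of the 29 other target genes lie left of 0 at 8 h (median -0.46), and the 6 IκB family genes all lie right of 0 at 24 h (median 0.40).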

How the data were processed

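Messenger RNA of 9 MDA-MB-231 samples was sequenced as stranded paired-end libraries, 3 per group. The authors aligned the reads to hg38 with HISAT2 after FastQC and counted read pairs per gene name with featureCounts, using strand and an Ensembl annotation of GRCh38. They deposited these raw counts in 1 table, without normalization, in which 0 columns of per-sample values were left unused. Gene names with too few counts were removed with filterByExpr (minimum count 10), which left 16556 names holding 99.9% of the counts. edgeR 4.0.16 (R 4.3.3) was fitted to all 9 libraries with TMM factors (0.978 to 1.04), and groups were compared with its quasi-likelihood test and Benjamini-Hochberg adjustment over all 16556 names, an adjusted p under 0.05 counting as a call. Levels are TMM-scaled CPM. The biological coefficient of variation was 0.0481, and total counts were 34633755 to 49342659. Among the 10 genes, counting error weighs most on REL and TNFAIP3, whose lowest counts in a library were 451 and 476. Some of the other target genes called lower at 8 h had far fewer counts. In TEPA 8 h replicate 3, VCAM1 had 0 counts, CCL2 had 3 and IL1A had 6. No 2 libraries agreed within sampling noise. The script was tested on simulated data.

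The members and lists were chosen with earlier results of these data known. All 10 members are named. From each other list, in each comparison, up to 3 called genes per direction with the largest change and a mean of at least 1 CPM were picked for naming. Not all picked genes are described at each time, and TAB1, TAB3, IL1RAP and N4BP1 are not described. CHUK and IKBKB were added outside this rule. The closest genes were sought for NFKBIA and RELB among names with a mean of at least 10 CPM. Exon lengths and positions are from GENCODE v44 and promoter windows from RefSeq, matched by symbol. Alternatives were DESeq2 1.42.0, scaling by upper-quartile or RLE factors, tests without the filter or with 10 counts in every library, only the groups compared, a replicate block, mitochondrially encoded genes left out, a fold limit, and each library left out in turn. Counts of the other lists without untreated replicate 1 or TEPA 24 h replicate 2 were added after seeing the data. Some marker genes are not reported here.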

Additional observations from a re-analysis of the deposited data

Results flagged for a closer look

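The effects of TEPA at 8 h and at 24 h were compared directly as TEPA 24 h against TEPA 8 h in edgeR's quasi-likelihood test. At an adjusted p under 0.05, 9 of the 10 NF-κB genes differed between the times, as did 54.8% of all genes tested. Of 45 other named genes of the pathway 39 differed, which makes 48 of the 55 genes named. These 45 were picked for being called with a large change in any of the comparisons, this one included. Their count is therefore raised by the choice and cannot be set against the share of all genes. Among all 88 other pathway genes tested, 52 were higher at 24 h and 11 lower, against 26.0% and 28.8% of all genes. The values below are log2 fold changes from 8 h to 24 h.

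Among the subunit genes the changes were 0.64 for NFKB2, 0.16 for RELA, 0.77 for RELB and 0.49 for REL. The inhibitor genes rose by 0.95 (NFKBIA) and 0.72 (TNFAIP3), and the other 3 responsive genes by 0.13 (TNFAIP2), 1.97 (BIRC3) and 0.87 (IER3).

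In the IκB family the changes were 0.34 for NFKBIB, 0.21 for NFKBIL1, 0.93 for BCL3, 0.49 for NFKBIE and 0.34 for NFKBIZ, and without TEPA 24 h replicate 2 the genes called fell from 5 to 3, NFKBIL1 and NFKBIZ being lost. Among kinase genes they were 0.18 for MAP3K14, 0.28 for IKBKE, 0.63 for MAP3K8, 0.25 for MAP3K3 and -0.60 for IKBKG. Among receptor genes they were 1.06 for TLR3, 1.12 for IL1R1, 0.28 for TLR4, 0.17 for CD40, -0.66 for TNFRSF12A and -0.52 for TNFRSF11A, the call of CD40 being lost without TEPA 24 h replicate 2. Adaptor and ligase genes gave 0.27 for BIRC2, 0.18 for TRAF2, 0.60 for IRAK2, 0.19 for RIPK1, 0.37 for MYD88, 0.28 for TICAM1, -0.62 for TRAF5 and -0.25 for SHARPIN. Negative regulators gave 0.13 for OTUD7B, 0.70 for TNIP1, 0.78 for CYLD, 0.65 for USP18, 0.54 for ZC3H12A and -0.40 for COMMD1. Other targets gave 2.01 for CXCL8, 1.07 for CSF2, 2.06 for CXCL1, 2.30 for SAA1, 0.88 for IRF1, 0.17 for PTX3, -0.38 for GADD45B, -0.51 for PLAU and -0.31 for LIF.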

How the results depend on the processing

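With all 9 libraries, 8216 genes were called at 8 h, 8688 at 24 h and 9079 between the treated groups. No value of the 10 genes that was called changed sign under any alternative run. With a log2 fold change limit of 0.5 the counts were 2943, 3095 and 3505, with 0 NF-κB genes higher and 2 lower at 8 h. Upper-quartile factors raised the NF-κB genes higher at 24 h from 5 to 8 (RELA, TNFAIP2 and IER3 added). These factors also moved the log2 fold changes of all genes at 24 h upward, by a median of 0.026. The added calls cannot be told apart from that general shift, and the share of all genes called higher at this setting is not given. Leaving out 1 library in turn gave 7138 to 8363 genes called at 8 h, 7517 to 8738 at 24 h and 8060 to 9643 between the treated groups, 4 to 5 NF-κB genes lower at 8 h and 1 higher, 5 to 7 higher at 24 h, 8 to 10 higher between the treated groups, and 0 lower in the last 2 comparisons. Same-numbered replicates did not deviate together (correlations -0.080 to 0.038). The fit with the replicate number as a block gave 7779, 8355 and 8758 genes called and the same number of NF-κB genes called in each direction. Over the 510 values of the 10 genes under alternatives, 4 lost their call, 20 gained one and 486 did neither. All 10 genes passed the filter on low counts, the lowest count being 451, but TNF and 7 other pathway genes were left untested.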
